A study of Mus musculus with 8 samples.

Results

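ATP-binding cassette (ABC) transporter genes were described in ovarian tumours of Nedd9-null and Nedd9-WT mice. Genes were taken by name, as every non-control probe of the array whose gene name is Abc, a letter from a to g, a number and at most 1 further letter. This gave 50 genes with 68 probes in 77 spots, of 31709 gene names on the array, and 43 of the 50 could be tested, of 25535 genes tested in all. All mice were female, had a C57BL/6J background, carried the TgMISIIR-TAg transgene and received no drug. In this transgene the promoter of the Muellerian inhibiting substance type II receptor drives the SV40 large T antigen. The Nedd9-null group had 4 mice with a null genotype at Nedd9, a scaffold protein gene of focal adhesions, and the Nedd9-WT group had 4 mice with the wild-type gene. Tumours arose spontaneously, the labels give no age, and they disagree on whether the tumours were under or had reached the size limit at which mice were killed. Each tumour gave RNA for 1 Agilent array, labelled in 1 colour, and the number of arrays limits the precision.

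ABC proteins bind and hydrolyse ATP in paired nucleotide-binding domains, and most use that energy to carry a substrate across a membrane. Subfamily A moves lipids, subfamilies B, C and G hold the drug efflux pumps beside bile salt, lipid, peptide and conjugate exporters, and subfamily D serves peroxisomes and lysosomes. Subfamilies E and F lack membrane domains and act on ribosomes. In ovarian tumours the efflux pumps are known for resistance to taxanes, anthracyclines and topoisomerase inhibitors.

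A level here is the log2 processed signal of a gene's brightest probe minus the 75th percentile of its array, and a difference is the Nedd9-null mean minus the Nedd9-WT mean with its standard error (SE). Levels of different genes come from different probes and were not set against each other. Adjusted p-values are those of limma with Benjamini-Hochberg adjustment over all 25535 genes, and a gene passed at 0.05. All arrays of a genotype lay on 1 slide of their own, so slide and genotype cannot be told apart. In bulk RNA, fewer cells of a type and less RNA per cell cannot be told apart either.

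Nedd9 itself fell by 4.51 on the log2 scale (SE 0.44, limma adjusted p = 0.0281) in the Nedd9-null tumours, by a probe of which the labels do not say whether the null allele lacks it. Nedd9-null replicate 1 stood apart from its own genotype. Over all genes tested it correlated at 0.886 to 0.920 with the other Nedd9-null arrays and at 0.938 to 0.973 with the Nedd9-WT arrays, against 0.977 to 0.984 among Nedd9-null replicates 2 to 4. Its ABC levels lay inside the Nedd9-WT range in 21 of 43 genes (48.8%), close to the 52% over all genes tested. The counts and most differences of ABC genes are therefore given with all 8 arrays and with the 7 arrays that remain without it. The array left out was picked from these same data, so adjusted p-values without it may be too small. The share of probes well above background was 79.5% to 84.6% on the Nedd9-null arrays and 73% to 83% on the Nedd9-WT arrays, and ABC genes well above background numbered 43 to 45 per Nedd9-null array and 37 to 43 per Nedd9-WT array.

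Among the 43 ABC genes tested, Abcb11, the bile salt export pump gene, rose in the Nedd9-null tumours with all 8 arrays, and it was the only one to pass in either direction. The background over all genes was 0.0587% higher and 0.00783% lower. At an unadjusted p under 0.05, 14 ABC genes (32.6%) differed, 8 higher and 6 lower, against 23.9% of all genes. Of these 8 higher, Abcb11, Abcc12, Abcg3 and Abcg5 passed the filter on dim probes through the Nedd9-null arrays alone. The genotypes did not overlap in 6 ABC genes that were higher in Nedd9-null tumours (14%, against 7.16% of all genes) and in 4 that were lower (9.3%, against 5.58%). Abcb11 and Abcg5 were among these 6. Without Nedd9-null replicate 1, 8 ABC genes rose (18.6%, against 10.3% of all genes) and 5 fell (11.6%, against 8.36%). These 13 were Abcb11, Abcg4, Abca2, Abcc4, Abcc12, Abcg3, Abcc3 and Abcb1b, which were higher, and Abcg2, Abcc5, Abcb9, Abca6 and Abcg1, which were lower. Of the 8 higher without that replicate, Abcb11, Abcc12 and Abcg3 passed the filter on dim probes through the Nedd9-null arrays alone. With 1 further array left out in turn, 4 to 7 were higher (4 without Nedd9-null replicate 3 or 4, 5 without replicate 2) and 1 to 4 lower. The lower count was 1 without Nedd9-null replicate 2 or 3 or Nedd9-WT replicate 4, 2 without Nedd9-null replicate 4 or Nedd9-WT replicate 3, and 3 without Nedd9-WT replicate 2.

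As a family the ABC genes moved in both directions. With 8 arrays 22 differences were positive and 21 negative, with a median of 0.07, against a median of 0.03 over all genes. The median difference was -0.30 in subfamily A (13 of 16 genes tested), 0.41 in B (9 of 10), 0.36 in C (9 of 10), -0.01 in D (3 of 4), -0.18 in F (3 of 3) and 1.22 in G (5 of 6). Subfamily E is Abce1 alone. All 9 genes with more than 1 probe above background had the same sign in each of those probes.

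**Figure D1:**
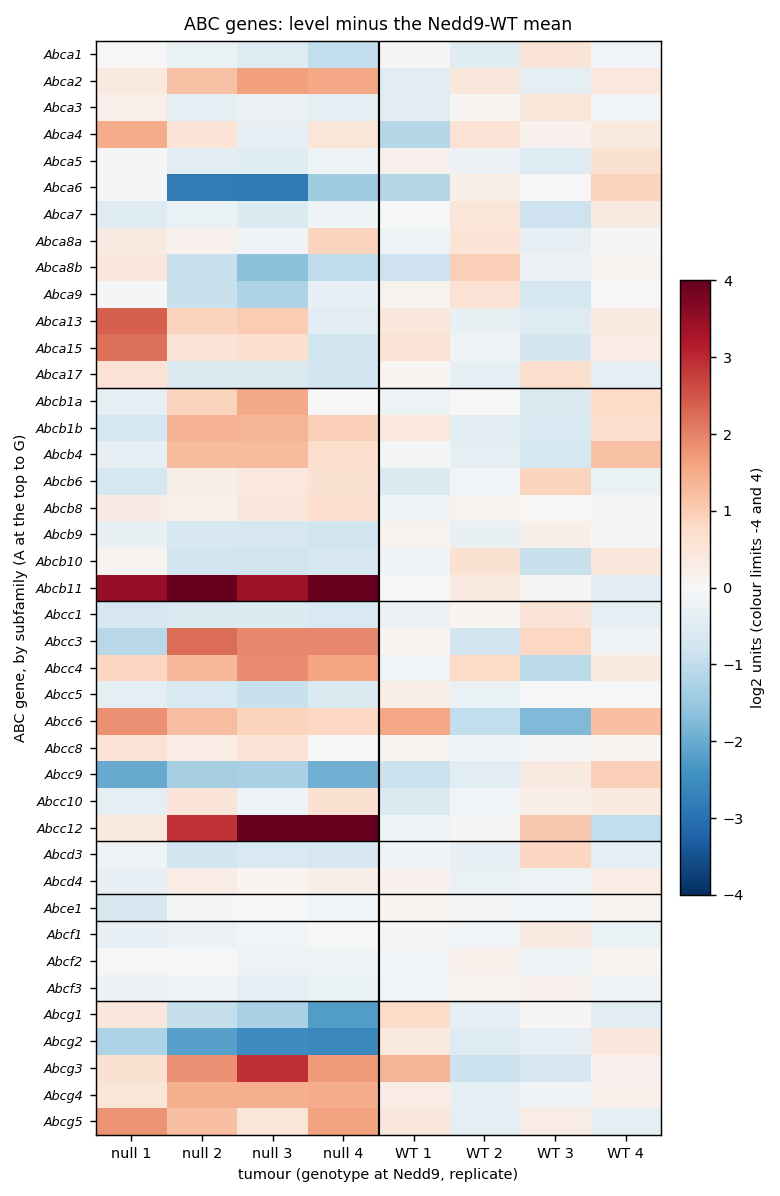
Level of 41 of the 43 ABC genes tested (rows, subfamily A at the top to G) in each tumour (columns, 4 Nedd9-null at the left and 4 Nedd9-WT at the right), in log2 units from the Nedd9-WT mean of the gene; colours stop at -4 and 4. Abcb11 is red in all 4 Nedd9-null columns and Abcg2 is blue in all 4, while Abcc3, Abcb1b and Abca6 in the first Nedd9-null column look unlike the next 3.

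Probe sequences of the genes on which the results turn are printed 5′ to 3′ on the strand named, with mm9 coordinates from the array files. Capitals in the Abcb1a and Abcb1b probes mark the longest run of bases that this pair of probes shares, 7 of 60, which is shown because the genes are close copies. Over all ABC genes, no 2 chosen probes shared a run longer than 12 bases. Whether a probe lies in a coding exon or a UTR was not analysed here.
Abcb11 probe, chr2:69076365-69076424, minus strand: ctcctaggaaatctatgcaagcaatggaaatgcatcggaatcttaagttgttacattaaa
Abcg2 probe, chr6:58642312-58642371, plus strand: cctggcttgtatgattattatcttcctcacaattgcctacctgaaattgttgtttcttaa
Abcb1a probe, chr5:8748075-8748134, plus strand: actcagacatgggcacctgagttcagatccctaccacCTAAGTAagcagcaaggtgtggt
Abcb1b probe, chr5:8865925-8865984, plus strand: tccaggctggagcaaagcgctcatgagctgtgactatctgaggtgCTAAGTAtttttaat
Abcb4 probe, chr5:8959108-8959167, plus strand: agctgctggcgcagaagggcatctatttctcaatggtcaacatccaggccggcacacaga
Abcc3 probe, chr11:94204612-94204671, minus strand: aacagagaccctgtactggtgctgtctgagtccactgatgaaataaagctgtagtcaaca
Abcg4 probe, chr9:44081302-44081361, minus strand: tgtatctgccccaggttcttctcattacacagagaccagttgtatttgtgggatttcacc
Abcc9 probe, chr6:142536920-142536979, minus strand: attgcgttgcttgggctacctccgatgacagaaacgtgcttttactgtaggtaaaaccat

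Drug efflux pumps differed in both directions. Of 9 pumps listed, 8 were tested: 5 had positive and 3 negative differences, with a median of 0.33. None passed with 8 arrays, while 4 had an unadjusted p under 0.05, 1 higher and 3 lower. Without Nedd9-null replicate 1, Abcc3, Abcc4 and Abcb1b rose and Abcg2 and Abcc5 fell. Abcc2, the canalicular exporter of conjugates, exceeded background clearly on 1 of 4 Nedd9-null and 1 of 4 Nedd9-WT arrays and was not tested.

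Abcg2 encodes the breast cancer resistance protein, which exports topoisomerase inhibitors, urate and porphyrins and is abundant in brain endothelium and stem-like cells. Its levels were -1.39, -2.34, -2.67 and -2.73 in Nedd9-null replicates 1 to 4, against 0.24, -0.68, -0.49 and 0.31 in Nedd9-WT replicates 1 to 4. All 4 Nedd9-null tumours were below all 4 Nedd9-WT tumours, and Nedd9-null replicate 1 was the nearest to them. The mean was -2.28 ± 0.62 in the Nedd9-null tumours and -0.16 ± 0.51 in those of Nedd9-WT mice (SD, n = 4 mice each), a difference of -2.13 (SE 0.37, limma adjusted p = 0.0690). A two-sided exact permutation test of Abcg2 taken alone gave p = 0.0286, the smallest that 70 arrangements can give. Abcg2 was chosen for it with earlier results of these data known. Any gene without overlap reaches this p, and 7.16% of all genes did so higher and 5.58% lower in Nedd9-null tumours. Without Nedd9-null replicate 1, Abcg2 fell by 2.42 on the log2 scale (limma adjusted p = 0.00208).

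The mean level of endothelial markers was also lower in the Nedd9-null tumours. All 10 of the list, among them Pecam1 and Cdh5, were well above background on all 8 arrays, 9 of 10 had negative differences, and the mean of the list, relative to the Nedd9-WT mean, was -0.82 to -0.63 in the Nedd9-null tumours and -0.56 to 0.70 in those of Nedd9-WT mice. With 8 arrays none of the 10 passed, and 5 had an unadjusted p under 0.05. The median of the 10 differences was -0.76, against -2.13 for Abcg2, and their part in the Abcg2 result was not tested.

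The P-glycoprotein of the mouse is encoded by a pair of genes, Abcb1a and Abcb1b, which export taxanes and anthracyclines. Abcb1a had levels of -2.07, -0.80, -0.19 and -1.69 in the Nedd9-null tumours, against -1.91, -1.73, -2.27 and -0.90 in the Nedd9-WT tumours. The genotypes overlapped, and the difference was 0.51 (SE 0.47, limma adjusted p = 0.545), with a 95% interval of -0.57 to 1.60. The exact permutation test gave p = 0.343. Without Nedd9-null replicate 1 the Abcb1a difference was 0.81 (limma adjusted p = 0.255).

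Abcb1b had levels of -3.16, -1.09, -1.10 and -1.51 in the Nedd9-null tumours, against -2.06, -2.88, -3.08 and -1.84 in the Nedd9-WT tumours. Nedd9-null replicates 2 to 4 were above every Nedd9-WT tumour, and replicate 1 was below them all. The difference was 0.75 (SE 0.52, limma adjusted p = 0.422; exact permutation p = 0.229) with 8 arrays. Without that replicate Abcb1b rose by 1.23 (limma adjusted p = 0.0486).

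The neighbour of this pair is Abcb4, the floppase that brings phosphatidylcholine into bile. The Abcb1a, Abcb1b and Abcb4 probes lie within 211.1 kb of chromosome 5. Abcb4 had levels of -1.59, 0.00, 0.01 and -0.53 in the Nedd9-null tumours, against -1.32, -1.64, -1.94 and -0.09 in the Nedd9-WT tumours. Nedd9-null replicates 2 and 3 were the highest of the 8, and the genotypes overlapped. The Abcb4 difference was 0.72 (limma adjusted p = 0.419) with 8 arrays and 1.07 (limma adjusted p = 0.145) without Nedd9-null replicate 1. All 3 genes of this stretch thus had positive differences in both fits, and Abcb1b passed in the fit without that replicate.

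**Figure D2:**
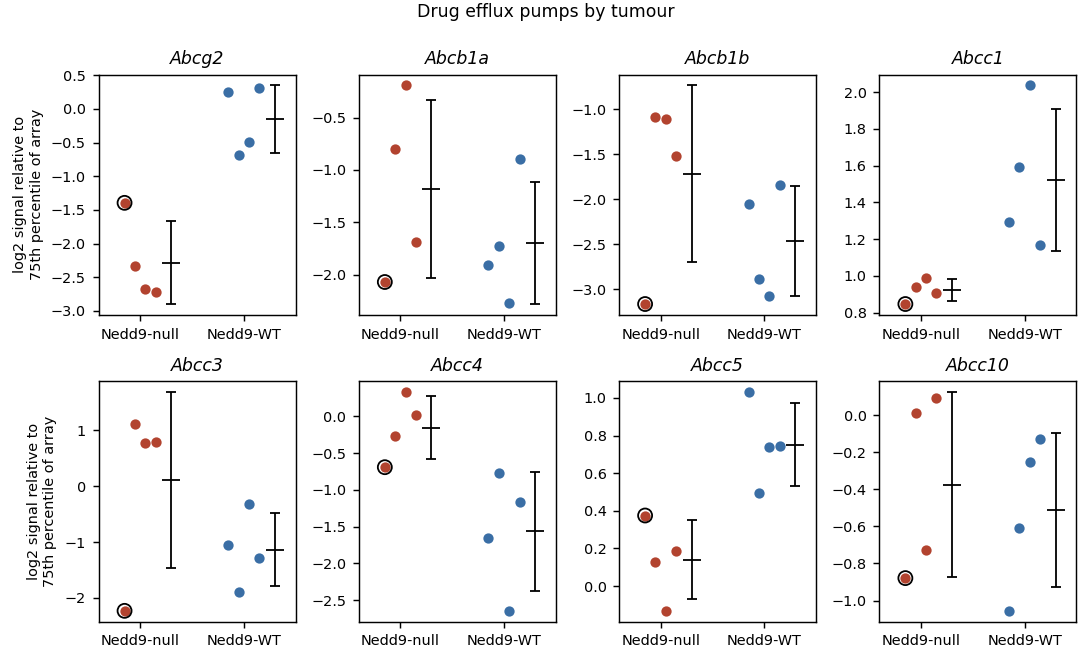
Levels of the 8 drug efflux pumps tested, in log2 signal scaled to the 75th percentile of the array, with 4 Nedd9-null tumours (red, left) and 4 Nedd9-WT tumours (blue, right) per panel; bars are mean ± SD, n = 4, and a ring marks Nedd9-null replicate 1. Abcg2, Abcc1 and Abcc5 were lower and Abcc4 was higher in Nedd9-null tumours without overlap, and the ringed point is the lowest Nedd9-null value of Abcb1a, Abcb1b, Abcc1, Abcc3, Abcc4 and Abcc10.

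Subfamily C holds the multidrug resistance proteins. Abcc1, which exports glutathione conjugates, leukotrienes and anthracyclines, had 0.85, 0.94, 0.99 and 0.91 in the Nedd9-null tumours, against 1.29, 1.59, 2.04 and 1.17 in the Nedd9-WT tumours. The Nedd9-null values spanned a narrow range (SD 0.06, against 0.39) and all lay below the Nedd9-WT values. The difference was -0.60 (SE 0.21, limma adjusted p = 0.147), and -0.58 (limma adjusted p = 0.136) without Nedd9-null replicate 1.

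Abcc3, an exporter of glucuronides and bile acids on the basolateral side of epithelia, had -2.23, 1.11, 0.78 and 0.78 in the Nedd9-null tumours, against -1.06, -1.89, -0.31 and -1.28 in the Nedd9-WT tumours. Replicates 2 to 4 of the Nedd9-null tumours were above every Nedd9-WT tumour, and replicate 1 was the lowest of all 8. With 8 arrays the difference was 1.25 (SE 0.75, limma adjusted p = 0.352). Without that replicate Abcc3 rose by 2.03 (limma adjusted p = 0.00905).

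Abcc4, an exporter of cyclic nucleotides and prostaglandins, had -0.69, -0.26, 0.33 and 0.02 in the Nedd9-null tumours, against -1.66, -0.78, -2.65 and -1.17 in the Nedd9-WT tumours. The groups did not overlap, although Nedd9-null replicate 1 and Nedd9-WT replicate 2 were close. The Abcc4 difference was 1.41 (SE 0.42, limma adjusted p = 0.115) with 8 arrays and 1.59 (limma adjusted p = 0.0468) without Nedd9-null replicate 1, and the second of these passed.

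Abcc5, which carries cyclic nucleotides and nucleotide analogues, had 0.38, 0.13, -0.13 and 0.19 in the Nedd9-null tumours, against 1.03, 0.49, 0.74 and 0.75 in the Nedd9-WT tumours. All Nedd9-null values were lower. The difference was -0.61 (SE 0.18, limma adjusted p = 0.114), and without Nedd9-null replicate 1 Abcc5 fell by 0.69 on the log2 scale (limma adjusted p = 0.0399). Its 4 probes gave differences of -0.61, -0.47, -0.28 and -0.20, and the first is the mean of 10 spots.

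Abcc10, a broad multidrug exporter, had -0.88, 0.01, -0.73 and 0.09 in the Nedd9-null tumours, against -1.06, -0.61, -0.25 and -0.13 in the Nedd9-WT tumours. The groups overlapped. The difference was 0.14 (SE 0.31, limma adjusted p = 0.825), and it was -0.05 with the arrays scaled to their median.

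Among the bile transporters, Abcb11 rose. Of 5 listed, Abcb11, Abcb4 and Abcg5 were tested, and Abcb11 and Abcg5 passed the filter on dim probes through the Nedd9-null arrays alone. Abcc2 and Abcg8, the partner with which Abcg5 forms a sterol exporter, were not tested, and Abcg8 was near background on all 8 arrays. Abcb11 is the pump that moves bile salts from hepatocytes into bile, and liver is its usual site of expression.

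Abcb11 had levels of -6.13, -5.50, -6.24 and -4.74 in the Nedd9-null tumours, against -9.60, -9.26, -9.58 and -10.05 in the Nedd9-WT tumours. All 4 Nedd9-null values, replicate 1 included, lay above the Nedd9-WT values, and the probe exceeded background clearly on 4 of 4 Nedd9-null and 0 of 4 Nedd9-WT arrays. The mean was -5.65 ± 0.69 in the Nedd9-null tumours and -9.62 ± 0.32 in those of Nedd9-WT mice (SD, n = 4 mice each). The measured means differed by 3.97 (SE 0.36, limma adjusted p = 0.0281), but the probe entered the test through the Nedd9-null arrays alone, and its Nedd9-WT values lay at background. If the Nedd9-WT levels were at or below a floor of -7.51, Abcb11 was at least 3.63-fold higher with Nedd9-null on the processed signals. This floor is the mean of the dimmest signals that the scanner still marked as detected on the Nedd9-WT arrays. Undetected probes can lie above such a floor, so 3.63-fold is not a strict lower limit. It holds for the processed signals alone, as differences with normexp background correction and in the authors' value table were smaller than this value.

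The size of the Abcb11 difference depended on the background step. It was 1.01 (limma adjusted p = 0.0637) with normexp background correction and 1.25 (limma adjusted p = 0.0811) in the authors' value table. The normexp setting also added an offset of 50 to every signal, which narrows log2 differences between dim signals. Processed signals of Abcb11 were 34.5 to 133 in the Nedd9-null and 2.79 to 5.19 in the Nedd9-WT tumours. The share of the offset in the smaller difference was not tested. With processed signals, the limma adjusted p was 0.000675 without Nedd9-null replicate 1 and 0.0389 without Nedd9-WT replicate 1. It was 0.0413 without Nedd9-null replicate 4. Abcb11 no longer passed when Nedd9-null replicate 2 (0.124) or 3 (0.0870) was left out, nor without Nedd9-WT replicate 2 (0.103), 3 (0.118) or 4 (0.0876).

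Of 7 hepatocyte markers, 4 were too dim to test. Alb, Ttr, Cyp7a1 and Fgb were well above background on 1, 0, 1 and 2 of 4 Nedd9-null arrays, against 0, 0, 0 and 1 of 4 Nedd9-WT arrays. Apob exceeded background clearly on 3 of 4 Nedd9-null and 0 of 4 Nedd9-WT arrays, and Serpina1a and Ahsg on all 8. Ahsg, the fetuin-A gene, had a difference of -2.83 (limma adjusted p = 0.133) with 8 arrays and of -3.48 (limma adjusted p = 0.0299) without Nedd9-null replicate 1. The mean of Apob, Serpina1a and Ahsg, relative to the Nedd9-WT mean, was -1.03 to 0.88 in the Nedd9-null tumours and -0.42 to 0.87 in those of Nedd9-WT mice. Nr1h4, the farnesoid X receptor that switches on Abcb11 in liver, had levels of -0.82, -3.41, -4.01 and -4.09 in the Nedd9-null tumours, against 0.35, -0.76, -0.98 and 0.01 in the Nedd9-WT tumours. The Nr1h4 difference was -2.74 (limma adjusted p = 0.104) with 8 arrays and -3.49 (limma adjusted p = 0.00126) without Nedd9-null replicate 1. Nr0b2, a repressor that this receptor induces, had a difference of -3.59 (limma adjusted p = 0.107), and of -4.68 (limma adjusted p = 0.000455) without that replicate.

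The promoter of Abcb11 is shown because the farnesoid X receptor is known to act on it, through an inverted repeat of 2 half-sites. RefSeq's window of 250 bases before and 50 after the gene start is printed from GRCm38.p6, and 38 of the 50 ABC genes had such a window. Capitals mark the match to AGGNCA, any 1 base, and TGACCT, searched on both strands, at -63 to -51 from the start. The motif was chosen after the sequence had been seen. It occurred in 12 of 32851 promoter windows (0.0365%) and in 1 of the 45 windows of ABC genes. The match is a description of letters, not of binding.
Abcb11 promoter, chr2:69342567-69342866, minus strand: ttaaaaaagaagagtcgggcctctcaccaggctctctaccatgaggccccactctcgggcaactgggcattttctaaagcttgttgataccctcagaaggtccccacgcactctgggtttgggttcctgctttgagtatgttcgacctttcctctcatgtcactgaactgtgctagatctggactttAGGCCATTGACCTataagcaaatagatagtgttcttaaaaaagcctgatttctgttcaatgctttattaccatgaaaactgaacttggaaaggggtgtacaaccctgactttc

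**Figure D3:**
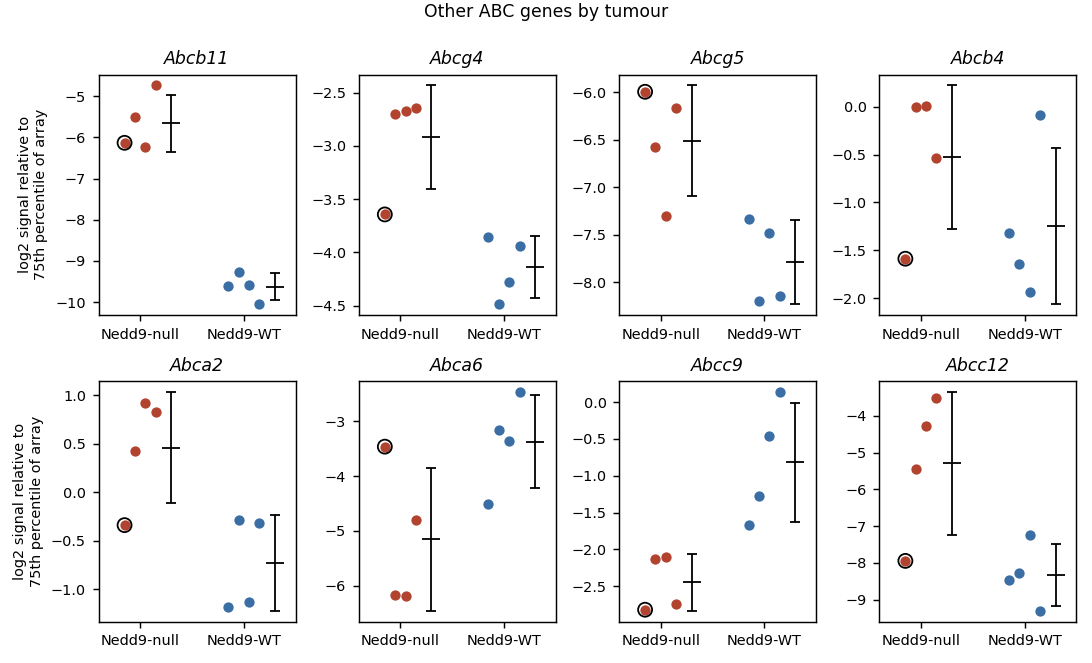
Levels of 8 further ABC genes, in log2 signal scaled to the 75th percentile of the array, with 4 Nedd9-null tumours (red, left) and 4 Nedd9-WT tumours (blue, right) per panel; bars are mean ± SD, n = 4, and a ring marks Nedd9-null replicate 1. Abcb11, Abcg4 and Abcg5 were higher and Abcc9 was lower in Nedd9-null tumours without overlap; each panel has its own scale.

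Sterol exporters were split. Of 5 listed, 4 were tested, 2 with positive and 2 with negative differences, and none passed with 8 arrays, while 2 had an unadjusted p under 0.05. Abcg4, which moves sterols to lipoproteins in brain, had -3.64, -2.71, -2.68 and -2.65 in the Nedd9-null tumours, against -3.85, -4.48, -4.27 and -3.94 in the Nedd9-WT tumours. Nedd9-null replicates 2 to 4 lay close together, and replicate 1 lay between them and the Nedd9-WT tumours. The difference was 1.22 (SE 0.28, limma adjusted p = 0.0870), and Abcg4 rose by 1.46 (limma adjusted p = 0.00288) without replicate 1. Its dimmer second probe gave 0.93.

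Abcg5 had -6.00, -6.58, -7.30 and -6.17 in the Nedd9-null tumours, against -7.34, -8.19, -7.48 and -8.14 in the Nedd9-WT tumours. The groups touched without overlap, and the probe exceeded background clearly on 4 of 4 Nedd9-null and 1 of 4 Nedd9-WT arrays. The Abcg5 difference was 1.28 (SE 0.34, limma adjusted p = 0.103) and 1.11 (limma adjusted p = 0.0693) without Nedd9-null replicate 1. It was 0.32 with normexp background correction, and 0.17 with normexp and without that replicate.

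Abcg1, which passes cholesterol to lipoproteins from macrophages and other cells, had 1.57, 0.18, -0.18 and -1.11 in the Nedd9-null tumours, against 1.88, 0.73, 1.18 and 0.69 in the Nedd9-WT tumours. Nedd9-null replicates 2 to 4 were below every Nedd9-WT tumour, and replicate 1 was above 3 of them. The Abcg1 difference was -1.0 (limma adjusted p = 0.313) with 8 arrays, and it fell by 1.49 on the log2 scale without replicate 1 (limma adjusted p = 0.0455). Macrophage markers had a mean, relative to the Nedd9-WT mean, of -0.94 to 0.87 in the Nedd9-null tumours and -1.18 to 1.31 in those of Nedd9-WT mice, with 8 of 10 tested, 3 of them positive and 5 negative. Abca1, the exporter that loads apolipoprotein A-I, had a difference of -0.44 (limma adjusted p = 0.392).

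Genes that accept or release the exported lipid differed in both directions. Of 10 listed, 9 were tested, and none passed with 8 arrays, while 5 had an unadjusted p under 0.05, 2 higher and 3 lower. Pltp, the phospholipid transfer protein gene, had 1.21, 1.5, 1.93 and 2.03 in the Nedd9-null tumours, against -1.37, -0.27, -3.84 and -1.66 in the Nedd9-WT tumours. No values overlapped, and the difference was 3.45 (limma adjusted p = 0.0779), or 3.60 (limma adjusted p = 0.0189) without Nedd9-null replicate 1. The fit without that replicate had 2 genes of the list higher and 3 lower.

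Of the 17 nuclear receptors and other factors known to control ABC genes, none passed with 8 arrays and 2 had an unadjusted p under 0.05, both lower. These were Nr1h4 and Nr0b2. Without Nedd9-null replicate 1, 3 of the 17 fell and none rose.

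In subfamily A, 5 differences were positive and 8 negative. None passed with 8 arrays, and 2 had an unadjusted p under 0.05, 1 in each direction. Abca2, a lipid transporter of endosomes and lysosomes in brain and other tissues, had -0.34, 0.43, 0.92 and 0.83 in the Nedd9-null tumours, against -1.18, -0.29, -1.13 and -0.32 in the Nedd9-WT tumours. Nedd9-null replicate 1 was level with the 2 highest Nedd9-WT tumours, and the other 3 were above all of them. The difference was 1.19 (SE 0.35, limma adjusted p = 0.115), and Abca2 rose by 1.46 (limma adjusted p = 0.0162) without that replicate. A second Abca2 probe gave 1.28.

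Abca5, Abca6, Abca8a, Abca8b and Abca9 form a tandem cluster, and their probes lie within 335.4 kb of chromosome 11. The differences of 4 were negative and that of Abca8a was positive, with a median of -0.64, and these signs held in each of the 18 alternative settings. None passed with 8 arrays, and 1 had an unadjusted p under 0.05. Abca6 had -3.46, -6.17, -6.19 and -4.79 in the Nedd9-null tumours, against -4.51, -3.15, -3.35 and -2.47 in the Nedd9-WT tumours. Nedd9-null replicates 2 to 4 were the lowest of the 8, and replicate 1 was inside the Nedd9-WT range. The difference was -1.79 (SE 0.69, limma adjusted p = 0.173), and Abca6 fell by 2.35 on the log2 scale (limma adjusted p = 0.0265) without that replicate.

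Abca9 had -0.34, -1.18, -1.51 and -0.61 in the Nedd9-null tumours, against -0.13, 0.30, -0.98 and -0.27 in the Nedd9-WT tumours. The groups overlapped, with a difference of -0.64 (SE 0.35, limma adjusted p = 0.309), or -0.83 (limma adjusted p = 0.150) without Nedd9-null replicate 1. The other 10 genes of subfamily A tested, among them the surfactant lipid transporter Abca3 and the retinal transporter Abca4, had differences of -0.77 to 0.96, and none passed in either fit. Abca12, Abca14 and Abca16 were well above background on 2, 1 and 1 of 4 Nedd9-null and on 0 of 4 Nedd9-WT arrays each and were not tested.

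Mitochondrial transporters had differences between -0.51 and 0.41. Abcb8, of the inner mitochondrial membrane, had 0.83, 0.71, 0.96 and 1.18 in the Nedd9-null tumours, against 0.35, 0.64, 0.48 and 0.56 in the Nedd9-WT tumours. All Nedd9-null values were above the Nedd9-WT values. The difference was 0.41 (SE 0.16, limma adjusted p = 0.176), and a second Abcb8 probe gave 0.29. Abcb6 and Abcb10 overlapped between genotypes. The Abcb6 difference was 0.14 (limma adjusted p = 0.867), and it was negative with the arrays scaled to their median (-0.0543), without Nedd9-null replicate 4 (-0.0179) and without Nedd9-WT replicate 1 (-0.0417). Of the 4 mitochondrial genes 3, Abcb6 among them, had positive differences, none passed with 8 arrays or without Nedd9-null replicate 1, and Abcb8 alone had an unadjusted p under 0.05 with 8 arrays.

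Abcb9, a peptide transporter of lysosomes, had -1.60, -1.96, -1.97 and -2.10 in the Nedd9-null tumours, against -1.16, -1.60, -1.07 and -1.40 in the Nedd9-WT tumours. Nedd9-null replicate 1 and Nedd9-WT replicate 2 met, and the other Nedd9-null values were lower. The difference was -0.60 (SE 0.19, limma adjusted p = 0.123), and Abcb9 fell by 0.70 on the log2 scale (limma adjusted p = 0.0347) without that replicate. Its relatives Tap1 and Tap2, the antigen peptide transporter genes, and Cftr, the chloride channel gene, belong to the ABC family under other names. Their differences were 0.81, 0.56 and 2.89 (limma adjusted p = 0.186, 0.314 and 0.138), all positive, and they were 1.03, 0.74 and 3.40 (limma adjusted p = 0.0528, 0.139 and 0.0551) without Nedd9-null replicate 1. The Cftr probe exceeded background clearly on 4 of 4 Nedd9-null and 2 of 4 Nedd9-WT arrays, and it entered the test through the Nedd9-null arrays alone.

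In subfamily D, Abcd3, the abundant half-transporter of the peroxisome, had 2.92, 2.35, 2.48 and 2.44 in the Nedd9-null tumours, against 2.95, 2.78, 3.97 and 2.70 in the Nedd9-WT tumours. Nedd9-null replicates 2 to 4 were the lowest of the 8. The difference was -0.55 (SE 0.31, limma adjusted p = 0.314), and -0.68 (limma adjusted p = 0.198) without replicate 1. Abcd4, which acts in lysosomal cobalamin export, had -0.49, 0.11, -0.10 and 0.04 in the Nedd9-null tumours, against 0.01, -0.46, -0.38 and 0.11 in the Nedd9-WT tumours. The groups overlapped fully, with a difference of 0.07 (SE 0.21, limma adjusted p = 0.874) and a 95% interval of -0.42 to 0.55, and it was -0.12 with the arrays scaled to their median. Abcd2 exceeded background clearly on 1 of 4 Nedd9-null and 2 of 4 Nedd9-WT arrays and was not tested.

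Abce1, which splits ribosomes for recycling, had 1.33, 1.93, 1.99 and 1.86 in the Nedd9-null tumours, against 2.06, 1.89, 1.87 and 2.07 in the Nedd9-WT tumours. Nedd9-null replicate 1 was the lowest, and the others overlapped. The difference was -0.20 (SE 0.19, limma adjusted p = 0.566), and -0.05 without that replicate. Abcf3 had 1.2, 1.30, 1.08 and 1.15 in the Nedd9-null tumours, against 1.31, 1.54, 1.60 and 1.27 in the Nedd9-WT tumours, with 1 Nedd9-null value inside the Nedd9-WT range. Its difference was -0.25 (SE 0.15, limma adjusted p = 0.346). All 4 genes of subfamilies E and F, with Abcf1 and Abcf2, had small negative differences, with a median of -0.19, none with an unadjusted p under 0.05.

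The sulphonylurea receptors are ABC proteins that gate potassium channels. Abcc9, the receptor of vascular and cardiac muscle, had -2.82, -2.13, -2.10 and -2.75 in the Nedd9-null tumours, against -1.66, -1.27, -0.45 and 0.14 in the Nedd9-WT tumours. All Nedd9-null values, replicate 1 included, were below all Nedd9-WT values. The difference was -1.64 (SE 0.41, limma adjusted p = 0.0957), and -1.51 (limma adjusted p = 0.0589) without Nedd9-null replicate 1, so Abcc9 passed in neither fit.

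Kcnj8, the channel subunit that works with Abcc9, had a difference of -0.14 (limma adjusted p = 0.892). Markers of pericytes and smooth muscle, where Abcc9 is usually found, were all tested, 6 of 10 with positive and 4 with negative differences. Their mean, relative to the Nedd9-WT mean, was -0.43 to 0.73 in the Nedd9-null tumours and -1.86 to 0.89 in those of Nedd9-WT mice, so the ranges overlapped. The -1.86 was that of Nedd9-WT replicate 3, and the other Nedd9-WT tumours had 0.36 to 0.89. The signs of the differences thus depend in part on that 1 tumour. Abcc8, the receptor of pancreatic beta cells, had -2.49, -2.78, -2.53 and -3.10 in the Nedd9-null tumours, against -2.96, -3.24, -3.12 and -3.02 in the Nedd9-WT tumours. The groups overlapped through Nedd9-null replicate 4, with a difference of 0.36 (SE 0.18, limma adjusted p = 0.274). A second Abcc8 probe gave 1.31, and Kcnj11, its channel subunit, had a difference of -0.33 (limma adjusted p = 0.554).

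A pair of dim genes had wide differences. Abcc12 had -7.94, -5.44, -4.28 and -3.51 in the Nedd9-null tumours, against -8.47, -8.29, -7.24 and -9.30 in the Nedd9-WT tumours. Nedd9-null replicates 2 to 4 were the highest of the 8, and the probe exceeded background clearly on 3 of 4 Nedd9-null and 1 of 4 Nedd9-WT arrays. The difference was 3.03 (SE 0.93, limma adjusted p = 0.121), and Abcc12 rose by 3.91 (limma adjusted p = 0.00488) without Nedd9-null replicate 1. With normexp background correction the Abcc12 difference was 1.19 (limma adjusted p = 0.109) with 8 arrays and 1.49 (limma adjusted p = 0.0122) without that replicate. The probe entered the test through the Nedd9-null arrays alone. Another Abcc12 probe was near background on all 8 arrays. Abcc6, a gene linked to ectopic calcification, was above background on 4 of 4 Nedd9-null and 2 of 4 Nedd9-WT arrays, with a difference of 1.2 (SE 0.75, limma adjusted p = 0.368) and overlapping groups.

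Abcg3, a gene of rodents, had -7.14, -5.91, -4.81 and -6.02 in the Nedd9-null tumours, against -6.37, -8.59, -8.39 and -7.58 in the Nedd9-WT tumours. Its probe exceeded background clearly on 3 of 4 Nedd9-null and 1 of 4 Nedd9-WT arrays, and replicates 2 to 4 of the Nedd9-null tumours were the highest. The probe entered the test through the Nedd9-null arrays alone. The Abcg3 difference was 1.76 (SE 0.62, limma adjusted p = 0.146), and 2.15 (limma adjusted p = 0.0444) without Nedd9-null replicate 1. With normexp background correction it was 0.46 with 8 arrays and 0.53 (limma adjusted p = 0.134) without that replicate, so the Abcg3 call was lost. Abcb5 exceeded background clearly on 0 of 8 arrays and was not tested.

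**Figure D4:**
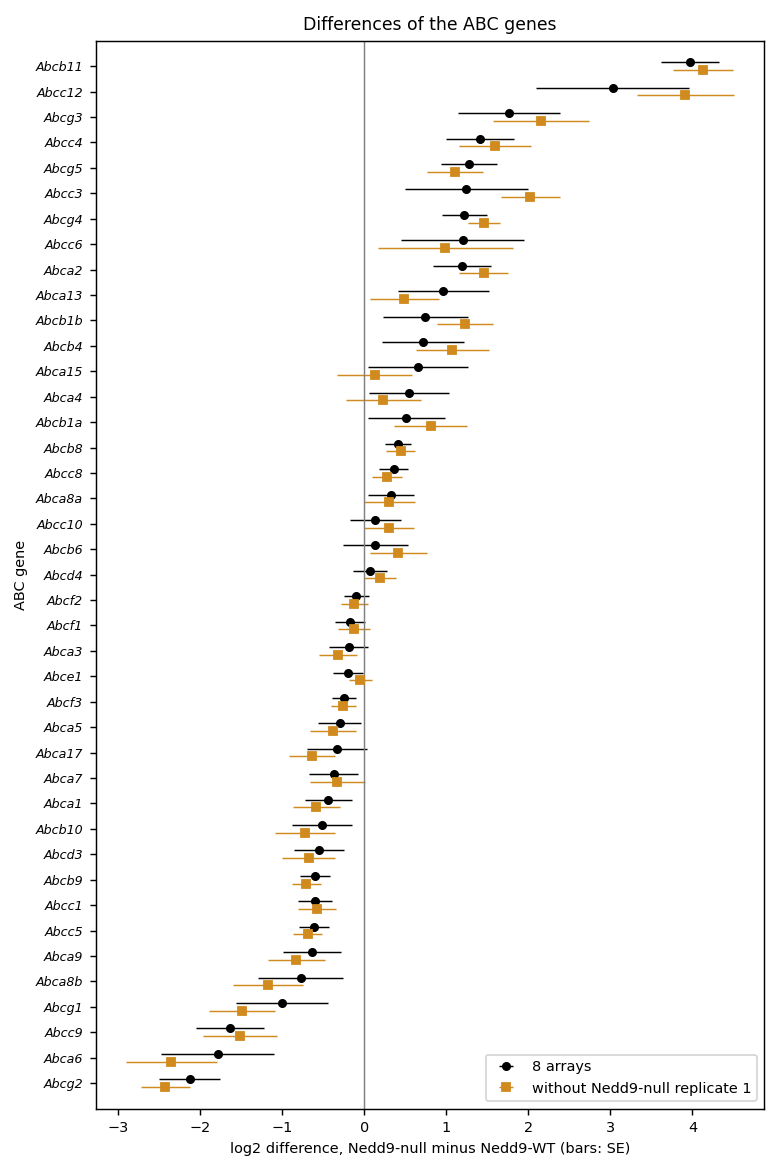
Log2 difference, Nedd9-null minus Nedd9-WT, of 41 of the 43 ABC genes tested, with 8 arrays (black circles) and without Nedd9-null replicate 1 (orange squares); bars are SE. Abcg2 is lowest with 8 arrays (-2.13), the Nedd9-WT signals of Abcb11 were at background, and Abcc3 and Abcc12 move upwards by more than 0.7 without that replicate.

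Uptake carriers, which bring many of the same drugs and bile acids into cells, were tested for 12 of 14 genes. None passed with 8 arrays, and 2 had an unadjusted p under 0.05. Slco2a1, the prostaglandin carrier gene, had a difference of 2.33 (limma adjusted p = 0.127) with 8 arrays and rose by 2.84 (limma adjusted p = 0.0278) without Nedd9-null replicate 1. Slc22a2, an organic cation carrier gene of the kidney, had a difference of -2.86 (limma adjusted p = 0.165), and of -3.82 (limma adjusted p = 0.0153) without it. The Slc22a2 probe exceeded background clearly on 1 of 4 Nedd9-null and 4 of 4 Nedd9-WT arrays. It entered the test through the Nedd9-WT arrays alone, so the size of its difference rests on values at background.

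The ABC genes in which Nedd9-null replicate 1 sided with the Nedd9-WT tumours, such as Abcc3, Abcb1b and Abca6, shared that pattern with some cell type marker lists. Markers of ciliated cells had a mean, relative to the Nedd9-WT mean, of 1.44 in Nedd9-null replicate 1 and 5.41 to 6.07 in Nedd9-null replicates 2 to 4, against -0.81 to 1.57 in the Nedd9-WT tumours, and all 8 of 8 differences were positive. Of the 8, Dnah5 exceeded background clearly on 3 of 4 Nedd9-null and 1 of 4 Nedd9-WT arrays, and the others on all 8 arrays. Markers of gonadal supporting cells had 0.25 in replicate 1 and -3.92 to -2.77 in replicates 2 to 4, against -0.16 to 0.23, with 8 of 10 negative. Of these gonadal markers, Amh and Fshr were well above background on 1 of 4 Nedd9-null and 4 of 4 Nedd9-WT arrays each, and the other 8 on all arrays. Epithelial markers had -1.06 in replicate 1 and 1.45 to 2.50 in replicates 2 to 4, against -0.64 to 0.61, with 9 of 9 positive. Every marker of these lists was tested, and their part in the ABC differences was not tested. In Abcb11, Abcg2, Abcc9, Abcc1 and Abcc5, by contrast, replicate 1 lay outside the Nedd9-WT range on the side of the other Nedd9-null tumours.

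**Figure D5:**
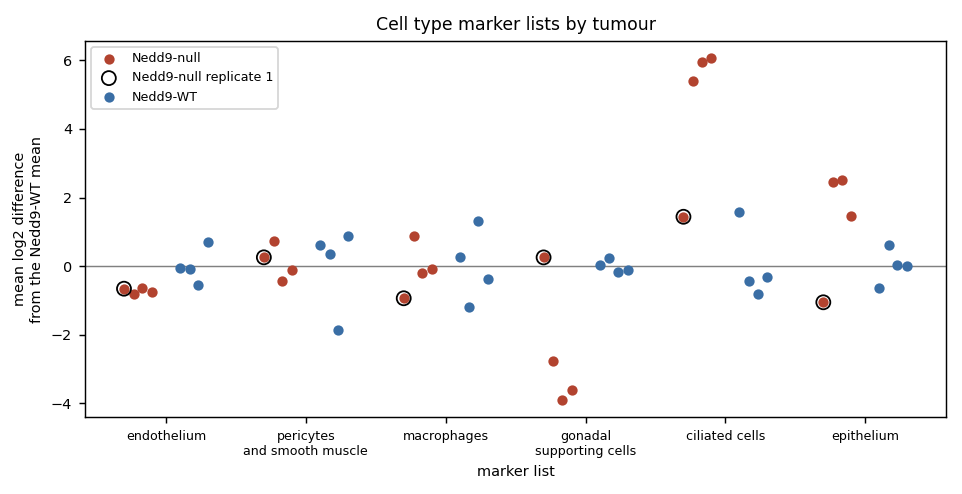
Mean log2 difference of each marker list from its Nedd9-WT mean, by tumour, for 6 cell types (Nedd9-null red and left, Nedd9-WT blue and right, ring for Nedd9-null replicate 1). All 4 Nedd9-null points of the endothelial markers lie below the lowest Nedd9-WT point, and the ringed tumour lay apart from the other Nedd9-null tumours in ciliated, gonadal supporting and epithelial markers.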

How the data were processed

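The deposited scanner files hold 1-colour intensity values that the authors made with Agilent Feature Extraction 9.5.3, per the submitters' processing notes, background-subtracted and not normalized between arrays, per the file headers. The authors' deposited value table holds log2 values, whose scale across arrays follows quantile normalization and whose background step is not given in the sources used here. Within arrays its values correlated at 0.9990 to 0.9999 with log2 median spot signals before background subtraction. Against the background-subtracted processed signals the correlation was 0.978 to 0.987. That table served as an alternative.

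Control and outlier spots were left out, spots of a probe were averaged, and the 75th percentile of an array was subtracted from its log2 signals. Of 39429 probes, 31783 were kept: those marked as well above background by at least 3 of the 4 arrays of either genotype. The probe with the highest mean represented a gene. Names were updated through RefSeq GRCm38.p6. limma 3.58.1 in R 4.3.3 (with version 1.17.8 of the data.table package) compared the genotypes, and the fit was tested on simulated data.

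Members and lists were chosen with earlier results of these data known. Values by tumour are given for genes past the threshold, for drug pumps and for the 2 genes of smallest p per other list. They are also given for genes that passed without Nedd9-null replicate 1 and for Abcb4, chosen after their values were seen. Other pathway lists are given as counts with up to 2 genes of smallest p. A few genes counted here are not reported by name. Alternatives changed background, scale, filter, probe, weights, block and arrays.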

Additional observations from a re-analysis of the deposited data

Results flagged for a closer look

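Among 74 groups of 4 tumours (37 ABC genes in each genotype), 3 held a tumour far from the other 3, and chance alone marks about 1 in 20 such groups. Nedd9-null replicate 1 had the lowest Abcc3 level of its genotype, -2.23, and the gap to the next tumour was 0.9 of the range of the group. The same tumour had the lowest Abcg4 level of its genotype, -3.64, with a gap of 0.939 of the range. It had the highest Abcb10 level of its genotype, -0.26, with a gap of 0.837 of the range.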

How the results depend on the processing

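The fit of 8 arrays called 17 genes in all, 1 ABC gene higher and 0 lower. All genes called numbered 4 with median scale, 4 with quantile scale, 7 with probes above background on all 8 arrays, 5984 with array weights, and 0 to 4773 when 1 array was left out. ABC genes higher numbered 0 with normexp, median scale, quantile scale, the filter on all 8 arrays (which left Abcb11 untested) and the authors' table, 8 with array weights, and 0 to 8 when 1 array was left out. ABC genes lower numbered 5 with array weights and 0 to 5 when 1 array was left out; 4773, 8 and 5 were the values without Nedd9-null replicate 1. With the replicate block, 0 genes, 0 ABC genes higher and 0 lower were called. Deviations of same-numbered tumours correlated at -0.23 to -0.04. These values gave no sign of a pairing by number, and they cannot exclude one. Chosen after seeing the data, normexp without Nedd9-null replicate 1 called 5202 genes, 7 ABC genes higher and 6 lower. With processed signals and without that replicate, leaving out a further array gave 4 to 7 ABC genes higher and 1 to 4 lower, against 8 and 5.

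The 37 named ABC genes had 624 alternative values, leaving out Nedd9-null replicate 1 alone included and normexp without that replicate excluded. Of these, 581 kept direction and side of the threshold, 24 newly passed, 10 lost the call (all Abcb11) and 9 changed sign. The 24 arose with array weights or without Nedd9-null replicate 1. The sign changes were Abcb6 (-0.0543 with median scale, and -0.0417 to 0.438 when 1 array was left out, negative without the same arrays as Abcc10), Abcc10 (-0.0535 with median scale, and -0.0439 to 0.305 when 1 array was left out, negative without Nedd9-null replicate 4 or Nedd9-WT replicate 1) and Abcd4 (-0.122 with median scale, and -0.0234 to 0.197, negative without replicate 2 of either genotype). The cause was not tested. Median scale moved the median difference of all genes to -0.16, against 0.03, and ABC genes with an unadjusted p under 0.05 to 7 higher and 9 lower, against 8 and 6. Of all genes called, 15 were higher and 2 lower, against 2 and 2 with median scale, 3 and 1 with quantile scale and 14 and 5 in the authors' table. Abcb11, Abcc12, Abcg3 and Abcg5 were near background in most Nedd9-WT tumours. With normexp and its offset of 50, their differences were 0.32 to 1.19, against 1.28 to 3.97.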
